A study of Mus musculus with 8 samples.

Results

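miR-219, miR-338-3p and miR-138 are 3 microRNAs (miRNAs) known for roles in the differentiation of oligodendrocytes, the cells that wrap axons of the central nervous system in myelin. They were taken by name (mmu-miR-219, mmu-miR-338-3p and mmu-miR-138) from the 375 miRNA assays of a TaqMan array card A, and all 3 were measured in every sample. The samples were total RNA of the ventral lumbar spinal cord from mice on the FVB background at 4 months of age, 4 of them wild type and 4 carrying MLC/SOD1[G93A]. The MLC/SOD1[G93A] transgene puts mutant SOD1, a gene mutated in familial amyotrophic lateral sclerosis, under a myosin light chain promoter that is specific to skeletal muscle, so the spinal cord is a tissue that the promoter does not target. The comparison asks whether miRNAs of the myelinating lineage differ in the spinal cord of these mice. The wild type samples are called wild type 1 to 4, and the MLC/SOD1[G93A] samples 5a to 8a after their columns, whose numbers the sample labels do not use. The study calls its controls littermates without saying which samples share a litter, so p-values measure the spread between these samples.

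A miRNA is cut from one arm of a hairpin precursor and pairs with messenger RNAs mainly through its seed, bases 2 to 8, which lowers the output of the matching transcripts. miR-219 and miR-338 rise strongly when oligodendrocyte precursors leave the cell cycle, and they repress factors that keep these cells immature, such as Pdgfra, Sox6, Hes5 and Zfp238. miR-138 acts at an early stage of the same program and represses Sox4, and it is also abundant in neurons, where it controls the size of dendritic spines. A level in whole tissue sums all cells, so fewer cells of a type and less RNA per cell cannot be told apart.

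The mature sequences are shown because the 3 miRNAs are grouped by role and not by sequence. They come from RefSeq (GRCm38.p6), where miR-219 is listed as miR-219a-5p and miR-138 as miR-138-5p, and capitals mark the seed.
mmu-miR-219: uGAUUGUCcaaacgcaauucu
mmu-miR-338-3p: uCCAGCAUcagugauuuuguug
mmu-miR-138: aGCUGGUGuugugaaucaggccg
The 3 seeds differ from each other, and 0 of the other mature sequences among the 1679 searched carry any of them.

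miR-219 and miR-138 each have 2 precursor genes, and an assay of the mature form does not tell them apart. Mir219a-1 lies at chr17:34024983-34025092 on the minus strand, next to Ring1 and H2-Ke6. Mir219a-2 lies at chr2:29845631-29845727 on the minus strand overlapping Cercam. Mir338 lies at chr11:120014765-120014862 on the minus strand overlapping Aatk, a kinase gene of the nervous system. Mir138-1 lies at chr9:122682876-122682974 on the plus strand between genes, with Topaz1 and Tcaim as its neighbours, and Mir138-2 at chr8:94324311-94324381 on the plus strand overlapping Nup93. The hairpins of Mir219a-2 and Mir338 are shown because an assay named for the second arm of the first is described further on, and the second yields miR-338-3p from its 3′ arm, with the mature form in capitals.
Mir219a-2: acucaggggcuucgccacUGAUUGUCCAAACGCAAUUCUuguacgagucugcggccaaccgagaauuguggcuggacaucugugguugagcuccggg
Mir338: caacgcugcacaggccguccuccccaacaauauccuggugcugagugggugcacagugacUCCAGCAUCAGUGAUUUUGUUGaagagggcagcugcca

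The cards gave threshold cycles (Ct), where 1 cycle less stands for about double the template, and between 239 and 256 of the 375 miRNAs per card were measured at a Ct of at most 35. Mean Ct of the 4 wells of U6, a small nuclear RNA used as the reference, ranged from 17.45 to 18.44 in wild type and from 16.88 to 18.50 in MLC/SOD1[G93A] samples. The lowest was sample 7a, whose 4 U6 wells spanned 2.14 cycles, beside 1.97 in sample 8a, 1.05 in sample 6a, 0.39 in sample 5a and 0.42 to 0.78 in the wild type samples. Since U6 shifts all miRNAs of a card together, each level is also given relative to the global mean, which averages the Ct of the 190 miRNAs found in every sample. Both are log2 levels, the reference Ct minus the miRNA Ct, and a negative change means less miRNA in MLC/SOD1[G93A] samples.

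miR-138 was among the most abundant signals on the card, miR-219 stood in the upper middle, and miR-338-3p lay below it. miR-138 had the lowest Ct of all measured miRNAs in 6 of 8 samples. It ranked 3 in wild type 3, after miR-126-3p and miR-29a, and 4 in sample 8a, after miR-296-3p, miR-339-5p and miR-381. In sample 8a the Ct of miR-296-3p read 16.48 and that of miR-381 read 1.07, both below every mean U6 Ct. No lower Ct limit was set, so the rank in that sample is not an order of abundance. miR-219 ranked between 77 and 103 with a median of 86.75, and miR-338-3p between 124 and 180 with a median of 144.75. Ranks between assays also carry differences in assay efficiency, so they order signals on the card and not molecules. In every sample the order was miR-138, miR-219 and miR-338-3p.

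miR-338-3p was the member whose group means lay farthest apart. Its Ct was 29.90, 30.46, 29.39 and 29.43 in wild type 1 to 4 and 30.81, 30.89, 31.76 and 29.94 in samples 5a to 8a. Samples 5a, 6a and 7a lay above all wild type samples and sample 8a within their range. The mean Ct was 29.80 ± 0.50 in wild type and 30.85 ± 0.74 in MLC/SOD1[G93A] samples (SD, n = 4 each), a difference of 1.06 cycles (two-sided exact permutation p = 0.0571, where 0.0286 is the smallest that 4 against 4 allows).

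Set against the global mean, the log2 level of miR-338-3p was -0.90, -1.98, -1.28 and -1.41 in wild type 1 to 4 and -2.03, -2.02, -3.07 and -1.67 in samples 5a to 8a. Again 3 of 4 MLC/SOD1[G93A] samples lay below the lowest wild type sample, 2 of them by less than 0.1, and sample 8a did not. The log2 change was -0.80 (SE 0.35, 95% interval -1.60 to -0.01), which is a ratio of 0.573 with an interval of 0.331 to 0.993. The limma p was 0.0476 before and 0.515 after Benjamini-Hochberg adjustment over the 227 miRNAs tested. The exact permutation p was 0.0571. At an unadjusted p under 0.05, 5.73% of all tested miRNAs lay lower and 3.52% lay higher on this scale, while 0% passed after adjustment, and the groups did not overlap in 4.41%. miR-338-3p had the 10th lowest change of the 227. With the global median in place of the global mean, its change was -0.81 (95% interval -1.64 to 0.02, unadjusted limma p = 0.0554, exact permutation p = 0.0857).

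Relative to U6, miR-338-3p was at -12.45, -12.26, -10.95 and -11.29 in wild type 1 to 4 and at -12.31, -12.39, -14.88 and -11.98 in samples 5a to 8a. Here only sample 7a, with its low U6 Ct, lay below all wild type samples. The log2 change was -1.15 (SE 0.69, 95% interval -2.59 to 0.29, limma adjusted p = 0.975, unadjusted p = 0.110). Without sample 7a the change of miR-338-3p was -0.49 with U6 (exact permutation p = 0.371) and -0.51 with the global mean (exact permutation p = 0.114). On the scale of U6, 0% of the miRNAs passed after adjustment, 2.20% lay lower and 0.441% lay higher without adjustment, and the groups did not overlap in 1.76%. The median of all 227 miRNAs changed by -0.31 with U6 as the reference and by 0.04 with the global mean.

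miR-219 showed no difference that passed a test on any of the 3 scales. Its Ct was 28.50, 27.75, 27.71 and 27.93 in wild type 1 to 4 and 28.03, 28.56, 28.79 and 27.97 in samples 5a to 8a, and the group means were 27.97 ± 0.36 and 28.34 ± 0.40 (SD, n = 4 each, exact permutation p = 0.171). The groups overlapped, with samples 6a and 7a above all wild type samples.

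On the scale of the global mean, miR-219 was at 0.50, 0.73, 0.40 and 0.09 in wild type 1 to 4 and at 0.75, 0.31, -0.10 and 0.30 in samples 5a to 8a. Both the highest and the lowest of the 8 values came from MLC/SOD1[G93A] samples. The change on this log2 scale was -0.11 (SE 0.25, 95% interval -0.68 to 0.46, limma adjusted p = 0.964), so the interval leaves room for a ratio between 0.622 and 1.37. Relative to U6 its log2 level ran from -11.05 to -9.27 in wild type and from -11.91 to -9.53 in MLC/SOD1[G93A] samples. That change was -0.46 (SE 0.65, 95% interval -1.83 to 0.90, limma adjusted p = 0.975).

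miR-138 likewise showed no difference that passed a test with all samples included. Its Ct was 21.28, 21.86, 21.95 and 21.60 in wild type 1 to 4 and 21.82, 21.61, 21.19 and 21.30 in samples 5a to 8a. The means of 21.67 ± 0.30 and 21.48 ± 0.29 (SD, n = 4 each) differed by -0.19 cycles (exact permutation p = 0.343), with sample 7a alone outside the wild type range.

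Relative to U6, miR-138 was at -3.83, -3.66, -3.51 and -3.46 in wild type 1 to 4 and at -3.32, -3.11, -4.31 and -3.34 in samples 5a to 8a. The other 3 MLC/SOD1[G93A] samples lay above all wild type samples while sample 7a lay below them all. The log2 change was 0.09 (SE 0.56, 95% interval -1.07 to 1.26, limma adjusted p = 0.975). With the global mean as reference it ran from 6.16 in wild type 3 to 7.72 in wild type 1, with samples 5a to 8a between 6.96 and 7.50. That change was 0.44 (SE 0.35, 95% interval -0.33 to 1.22, limma adjusted p = 0.697). Without wild type 1, the highest value, it was 0.78 (exact permutation p = 0.0286, the smallest that 4 against 3 allows, limma adjusted p = 0.182). Leaving out any other single sample gave an exact permutation p between 0.257 and 0.543.

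**Figure D1:**
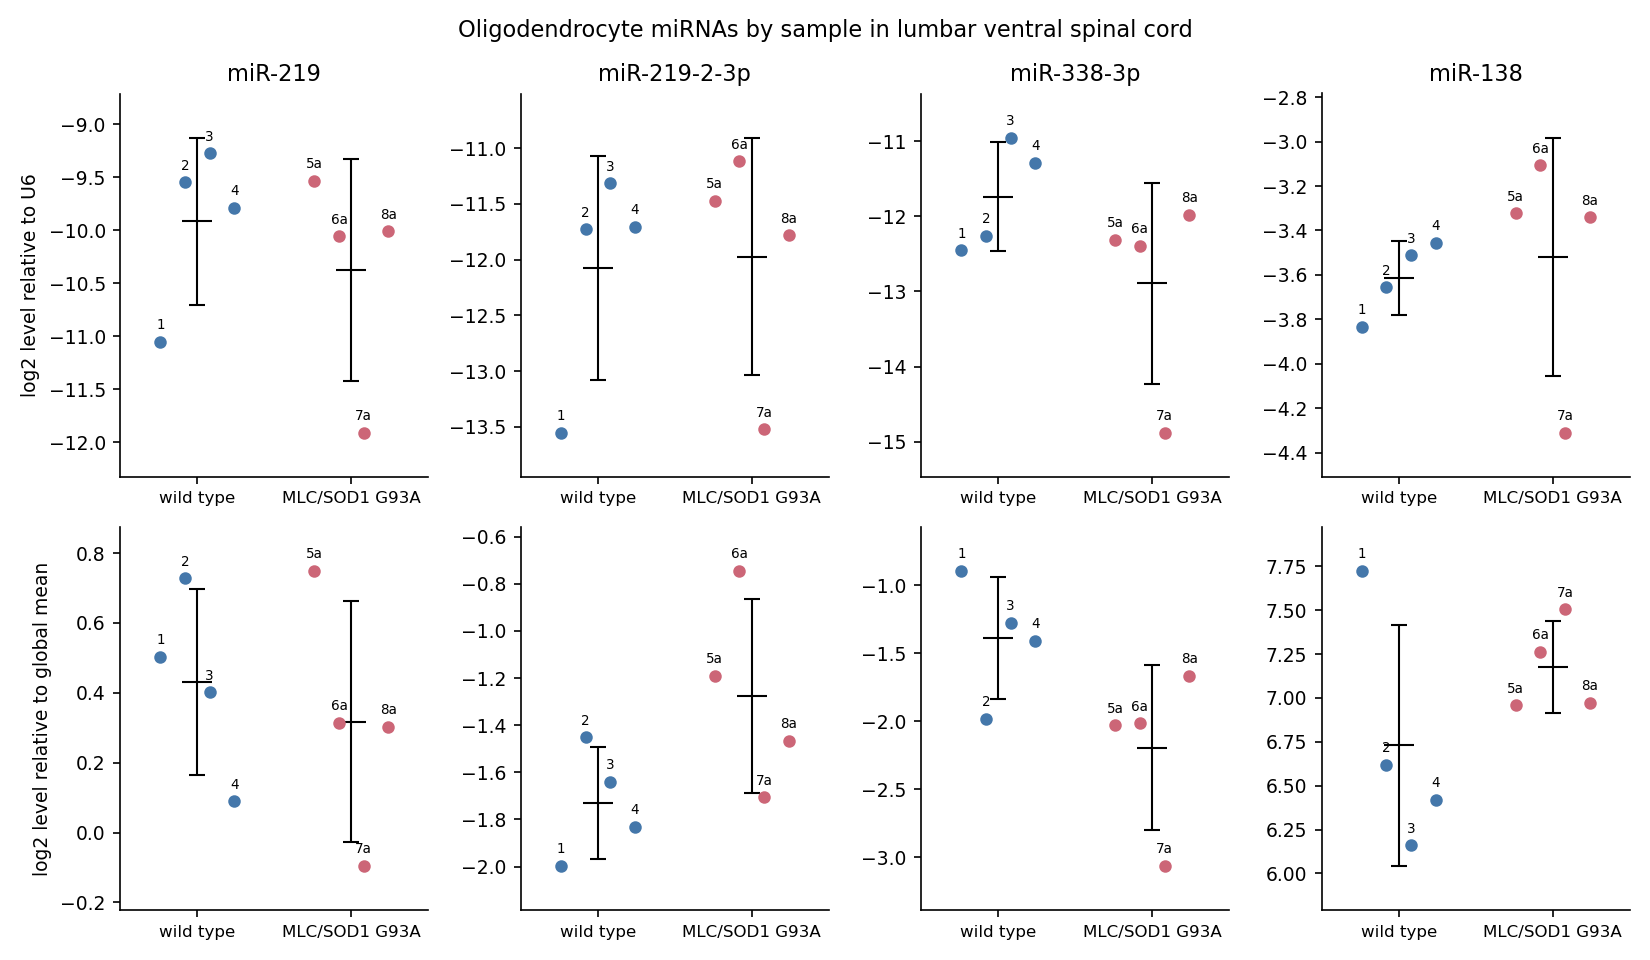
log2 level of the 3 miRNAs and of the opposite arm miR-219-2-3p in each sample (y axes, reference Ct minus miRNA Ct, each panel on its own scale), relative to U6 in the upper row and to the global mean in the lower row, with wild type in blue and MLC/SOD1 G93A in red. Numbers name the samples, and black marks show mean ± SD of 4 samples. Relative to the global mean, 3 of 4 transgenic samples lie below all wild type samples for miR-338-3p. On this scale the groups overlap for miR-338-3p as well as for miR-219 and miR-138.

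The Ct of miR-138 rose with the mean U6 Ct over the 8 samples, with Pearson's r = 0.827 (exact permutation p = 0.00484, 0.0290 adjusted over the 6 relations computed) and Spearman's rho = 0.786 (p = 0.0279, adjusted 0.168, exact permutation). Without wild type 1 and sample 7a, the samples with the lowest U6 Ct, r was 0.668. This was the only one of the 6 relations whose r passed after adjustment. For the Ct of miR-219 against the mean Ct of the other miRNAs r was 0.716 and rho 0.714 (exact permutation p = 0.0547 and 0.0576, adjusted 0.151 and 0.173), and r was 0.623 without wild type 3 and 4. For miR-338-3p against the other miRNAs r was 0.612 and rho 0.548 (exact permutation p = 0.107 and 0.171, adjusted 0.161 and 0.342), and r fell to 0.163 without the same 2 samples. The relations of miR-219 and miR-338-3p to U6, at r = -0.65 and r = -0.41, and of miR-138 to the other miRNAs, at r = -0.33, did not pass the test either (exact permutation p = 0.0757, 0.323 and 0.405), and their rho was -0.26, 0.02 and -0.31 (p = 0.536, 0.977 and 0.462).

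The spread within groups also varied between the 3. Relative to U6 the pooled SD of miR-138 was 0.40, the 4th smallest of the 190 miRNAs measured in all samples, while miR-219 had 0.93 and miR-338-3p 1.08 against a median of 0.92. Against the global mean, miR-219 had the smallest spread of the 3 with 0.31, and miR-338-3p had 0.53 and miR-138 0.52 against a median of 0.43. Which of the 3 varied least between samples of a group therefore depended on the reference.

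Ct differences between members need no reference, since any shift of a whole card cancels. miR-338-3p minus miR-138 was 8.62, 8.60, 7.44 and 7.83 cycles in wild type 1 to 4 and 8.99, 9.28, 10.57 and 8.64 in samples 5a to 8a. The groups did not overlap, but only 0.02 cycles separated wild type 1 from sample 8a. The mean difference was 8.12 ± 0.59 in wild type and 9.37 ± 0.84 in MLC/SOD1[G93A] samples (SD, n = 4 each), so miR-338-3p was 1.25 cycles lower relative to miR-138 in MLC/SOD1[G93A] samples. The exact permutation p was 0.0286, the smallest possible, and it was 0.582 after adjustment over all 17955 pairs of the 190 miRNAs. Of these pairs 4.93% did not overlap between the groups, and 6.48% differed by at least as much. Without sample 7a the difference was 0.85 cycles (exact permutation p = 0.114).

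The other member pairs overlapped. miR-219 minus miR-138 was 7.22, 5.89, 5.76 and 6.33 cycles in wild type 1 to 4 and 6.21, 6.95, 7.60 and 6.67 in samples 5a to 8a, with means 0.56 cycles apart (exact permutation p = 0.257, adjusted over all pairs 0.785). Leaving out 1 sample moved that difference to between 0.31 cycles, without sample 7a, and 0.86, without wild type 1, and it was 0.38 without wild type 3. miR-338-3p minus miR-219 was 1.40, 2.71, 1.68 and 1.50 cycles in wild type 1 to 4 and 2.78, 2.33, 2.97 and 1.97 in samples 5a to 8a, with means 0.69 cycles apart (p = 0.114, adjusted 0.680, exact permutation). Wild type 2 alone of its group reached the range of the MLC/SOD1[G93A] samples in that pair. The difference between these 2 miRNAs, the pair best known to act together in late steps of the lineage, did not pass the test.

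Paired with each of the other 189 miRNAs in turn, miR-338-3p had 18 partners with no overlap between the groups, and in all 18 it was the miRNA that lay lower in MLC/SOD1[G93A] samples. These partners included let-7a, let-7f, miR-183, miR-191, miR-376c and miR-410 besides miR-138. miR-138 had 9 such partners and was the higher one in 8 of them, and miR-219 had 3. The median over the 190 miRNAs was 6 and the highest 69, and 24 miRNAs had more such partners than miR-338-3p.

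**Figure D2:**
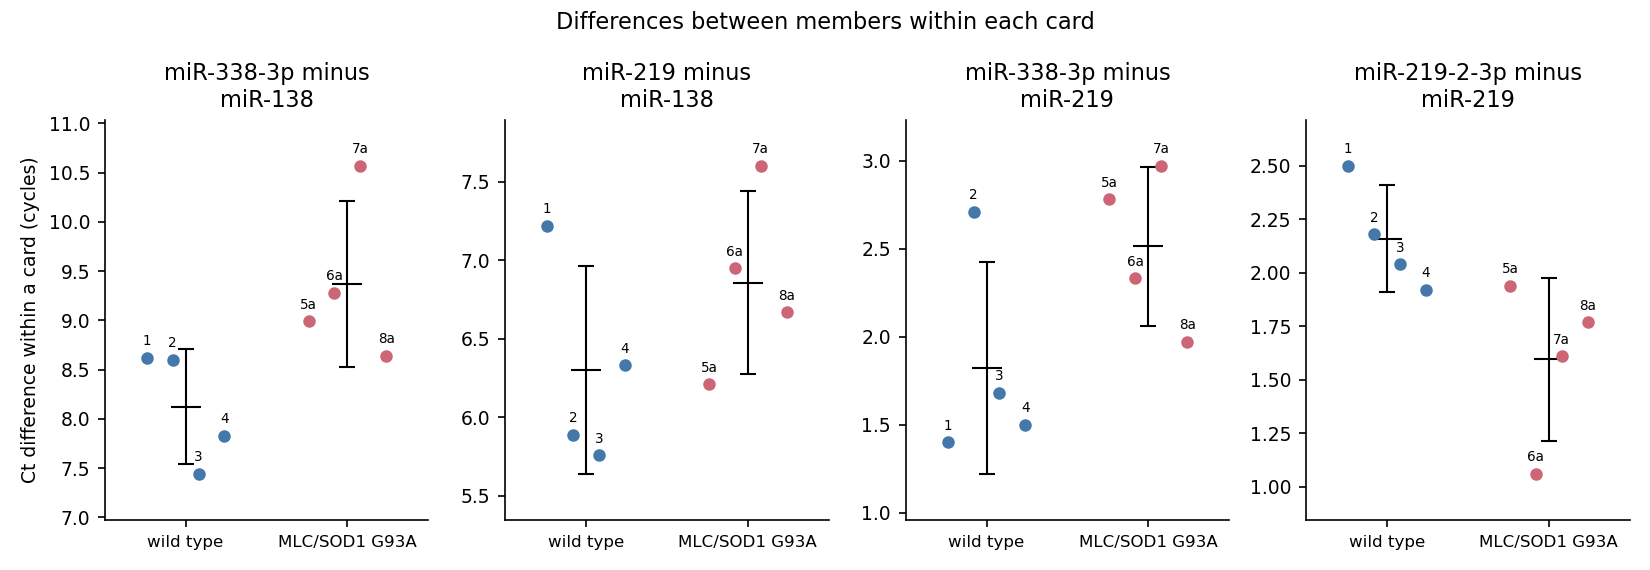
Ct difference between 2 miRNAs of the same card (y axes, cycles, each panel on its own scale) in each sample, wild type in blue and MLC/SOD1 G93A in red, for the 3 member pairs and for miR-219-2-3p against miR-219. Black marks show mean ± SD of 4 samples; only miR-338-3p minus miR-138 has no overlap, with wild type 1 at 8.62 and sample 8a at 8.64 cycles.

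The card also held rat-named assays for the opposite arms of the miR-219 precursors, rno-miR-219-2-3p and rno-miR-219-1-3p. Both arms of one hairpin arise from the same transcript. That the rat-named assay reads the 3′ arm of the mouse Mir219a-2 hairpin was taken from its name and not checked by sequence. miR-219-2-3p was measured in all 8 samples, with a Ct of 31.00, 29.93, 29.75 and 29.85 in wild type 1 to 4 and 29.97, 29.62, 30.40 and 29.74 in samples 5a to 8a. Its log2 change was 0.45 relative to the global mean (SE 0.27, 95% interval -0.14 to 1.05, limma adjusted p = 0.637) and 0.10 with U6 as the reference (SE 0.68, limma adjusted p = 0.975). miR-219-1-3p was within a Ct of 35 in wild type 1 alone, at 33.92, and was not tested.

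The Ct of miR-219-2-3p minus that of miR-219 was 2.50, 2.18, 2.04 and 1.92 cycles in wild type 1 to 4 and 1.94, 1.06, 1.61 and 1.77 in samples 5a to 8a. The groups overlapped by 0.02 cycles, between wild type 4 and sample 5a. The means of 2.16 ± 0.25 and 1.60 ± 0.38 (SD, n = 4 each) differed by -0.56 cycles (exact permutation p = 0.0571, adjusted over all pairs 0.621). miR-219-2-3p had 24 of 189 partners without overlap, beside a median of 6 and a highest of 69 over the 190 miRNAs, and 16 miRNAs had more. It was the higher miRNA in MLC/SOD1[G93A] samples in all 24, the opposite of miR-338-3p. The Ct of miR-338-3p minus that of miR-219-2-3p itself overlapped between the groups (exact permutation p = 0.0571, adjusted over all pairs 0.621).

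The size of each change depended on the reference that was subtracted. With 14 other references in place of the U6 mean (single U6 wells and their median, other small RNAs, averages of miRNAs, neuronal miRNAs or none), miR-338-3p was lower in MLC/SOD1[G93A] samples under all 14, from -3.43 with U87 to -0.22 with Y1. A reference shifts all miRNAs of a card alike, and 24 of the 227 (10.6%) were lower under all 14. miR-219 was lower under 9 and higher under 5 of them, and miR-138 lower under 4 and higher under 10. miR-338-3p passed the exact permutation test under 1 of the 14, U6 well 1 (-1.97, p = 0.0286, limma adjusted p = 0.176). That well lowered the whole card, with a median change of -1.12 over the 227 miRNAs. At an unadjusted limma p under 0.05, 45 of the 227 lay lower and 0 higher with it. With snoRNA202, whose Ct was 22.57 to 23.53 in wild type and 22.62 to 22.97 in MLC/SOD1[G93A] samples, the changes were -1.19 for miR-338-3p, -0.50 for miR-219 and 0.06 for miR-138. U87 gave the widest intervals, and its Ct was 18.40 in sample 8a against 27.87 to 29.54 in the other 7. Against the mean of 7 neuronal miRNAs, miR-338-3p changed by -0.58 (SE 0.37), miR-219 by 0.11 (SE 0.26) and miR-138 by 0.67 (SE 0.35), none with a limma adjusted p under 0.05.

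**Figure D3:**
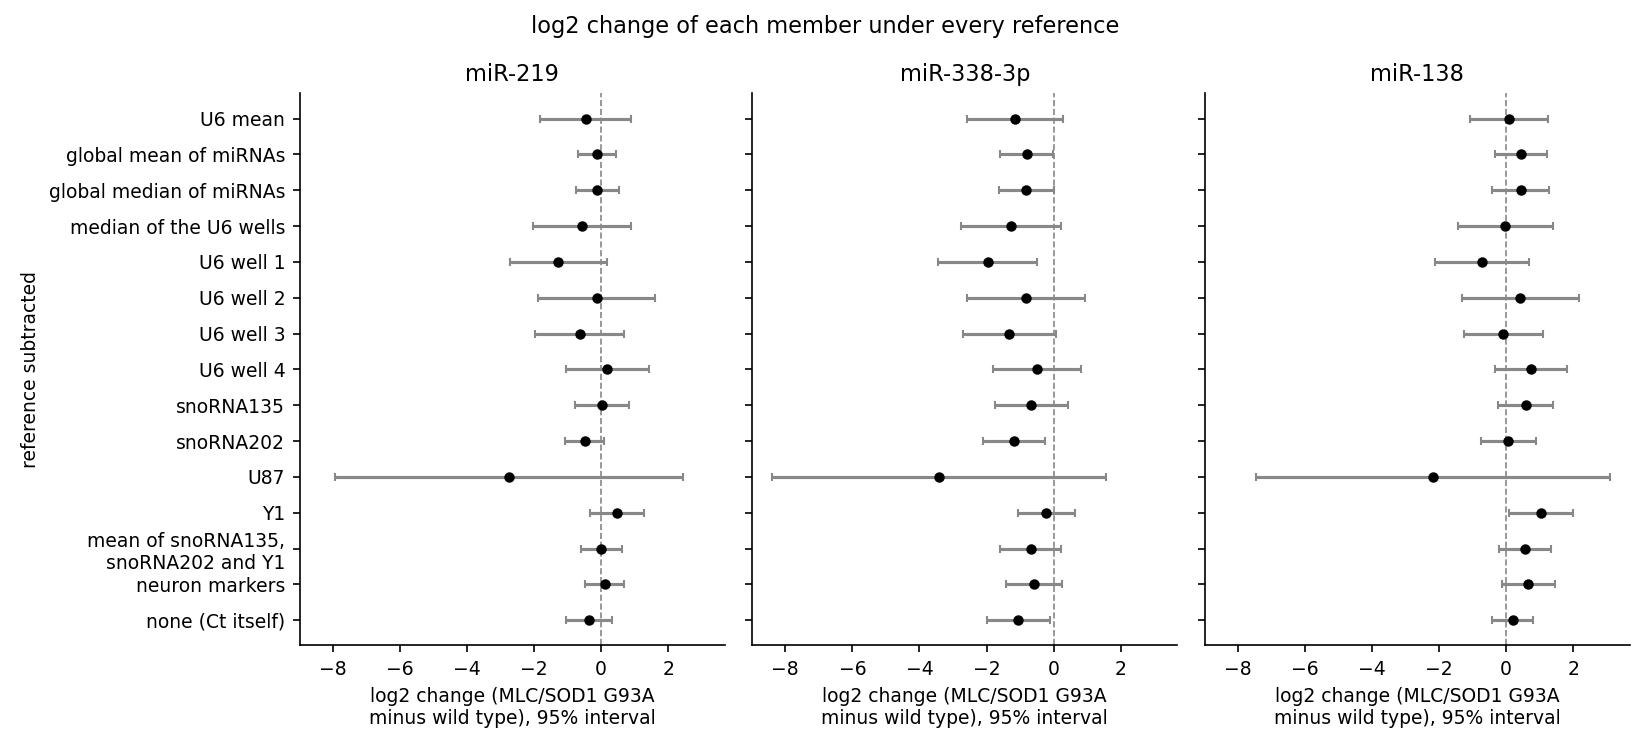
log2 change, MLC/SOD1 G93A minus wild type (x axes), of miR-219, miR-338-3p and miR-138 with each reference that was subtracted (y axis), as points with 95% limma intervals from 4 against 4 samples. The points of miR-338-3p lie left of 0 in every row, from -3.43 to -0.22, while those of miR-219 and miR-138 fall on both sides.

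Other miRNAs with known roles in oligodendrocytes or myelin were a list of 22, of which 21 were on the card and 17 were tested. On the scale of the global mean, 15 had negative and 2 positive changes, beside 105 and 122 of all 227 tested. Several of the 17 share a cluster, such as miR-19b and miR-20a, or a family, such as miR-29a, miR-29b and miR-29c. They are therefore not separate observations, and miR-145 is also counted among endothelial and mural cells below. The median of the 17 was -0.20 beside 0.04 for all tested miRNAs. At an unadjusted limma p under 0.05, 2 of the 17 fell (5.73% of all tested miRNAs did), and 0 passed after adjustment. The first was miR-23b, of a family that promotes oligodendrocyte development by repressing lamin B1, with a log2 change of -0.90 (SE 0.33, limma adjusted p = 0.497, unadjusted 0.0219). The other was miR-19b, of a cluster that drives growth of oligodendrocyte precursors, with a log2 change of -0.53 (SE 0.23, limma adjusted p = 0.515, unadjusted 0.0456). Relative to U6, 16 of 17 had negative changes, beside 176 of all 227 tested. The median of the 17 was then -0.55 beside -0.31 for all, and 0 had an unadjusted limma p under 0.05.

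Most of the other lineage miRNAs also had negative changes relative to the global mean, and only miR-7b (0.32) and miR-32 lay above 0. miR-7a, which promotes the production of oligodendrocyte precursors, was at -0.74 (SE 0.44), and miR-20a of the same cluster as miR-19b at -0.60 (SE 0.36). miR-9, which represses the myelin gene Pmp22 in precursors, was at -0.10 (SE 0.23) relative to the global mean. The miR-29 family lay at -0.54 for miR-29b, -0.17 for miR-29c and -0.03 for miR-29a. miR-32 was the highest at 0.65 (SE 0.57). None of these passed the unadjusted threshold.

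**Figure D4:**
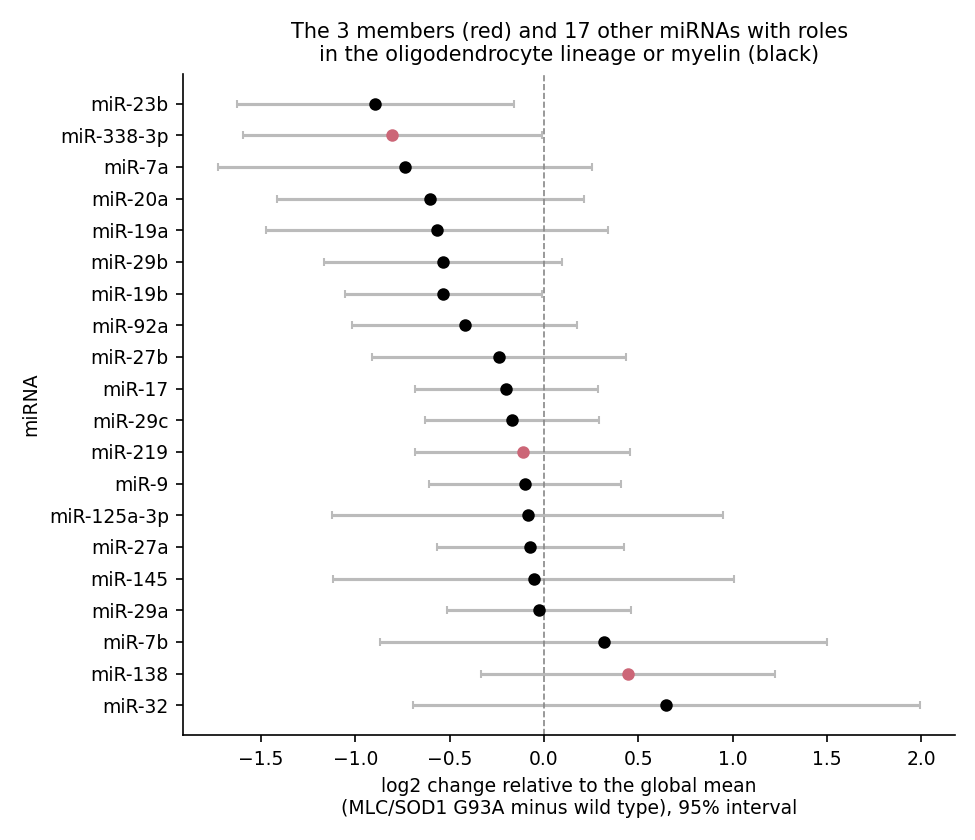
log2 change relative to the global mean, MLC/SOD1 G93A minus wild type (x axis), of the 3 oligodendrocyte miRNAs in red and of 17 other miRNAs with roles in the oligodendrocyte lineage or myelin in black (y axis), as points with 95% limma intervals from 4 against 4 samples, or 3 where a sample was missing. miR-23b at -0.90 and miR-338-3p at -0.80 have the lowest changes, and most intervals include 0.

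Markers of other cells in the tissue were set beside these values. The mean global-mean-relative level of 7 neuronal miRNAs lay between 1.25 and 1.34 in wild type and between 0.78 and 1.35 in MLC/SOD1[G93A] samples, and 1 of the 7, miR-129-5p, was lower at an unadjusted p under 0.05, as were 5.73% of all tested miRNAs. For 6 miRNAs of microglia and leukocytes the range was 0.99 to 1.66 against 0.82 to 1.14, with 1 of 6 lower at the same threshold, miR-223, beside the same 5.73%. For 2 miRNAs of red blood cells it was -0.13 to 1.88 against -0.25 to 0.66, for 4 of endothelial and mural cells 2.46 to 3.27 against 2.42 to 2.98, and for 3 of skeletal muscle 1.41 to 1.97 against 0.91 to 2.49. Their part in the values of miR-338-3p was not tested. Of 4 miRNAs of epithelium and liver only miR-200c was tested, with a Ct of 31.00 to 33.99 across the samples. miR-141 was within a Ct of 35 in wild type 3 (34.62) and sample 8a (33.57), and miR-205 in sample 8a alone (31.75). The liver miRNA miR-122 had no Ct in any sample. Of the 8 neuronal miRNAs, 7 were measured in all samples, miR-124 and miR-218 among them, and miR-153 was not tested. The 3 members and the 3 miRNAs of skeletal muscle were also measured in all samples. The muscle miRNA miR-133a had a Ct of 23.44 to 24.98, beside 26.58 to 27.99 for miR-124.

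Among the 190 miRNAs measured in all samples, the one whose global-mean-relative level over the 8 samples was most like that of miR-338-3p was miR-34a (Pearson's r = 0.906, and 0.883 without wild type 1 and sample 7a), followed by miR-23b (r = 0.815, and 0.472 without these 2 samples) and miR-361 (r = 0.794, and 0.704). miR-34a was at 2.01, 1.72, 2.37 and 2.06 in wild type 1 to 4 and at 1.37, 1.43, 0.71 and 1.51 in samples 5a to 8a. Its log2 change was -0.78 (limma adjusted p = 0.427), given as a description, since it was picked for its likeness to a miRNA that was itself lower in MLC/SOD1[G93A] samples. The pattern of miR-219 was most like that of miR-30c (r = 0.860), miR-127 (r = 0.777) and miR-325 (r = 0.754), where r was 0.789, 0.472 and 0.567 without samples 5a and 7a. The pattern of miR-138 was most like that of miR-125a-5p (r = 0.964), rno-miR-339-3p (r = 0.925) and miR-186 (r = 0.924), where r was 0.967, 0.828 and 0.818 without wild type 1 and 3. These correlations share the cards and their reference and are given as descriptions.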

How the data were processed

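The authors isolated total RNA, reverse transcribed it with primer pools and ran TaqMan Mouse MicroRNA Card A version 3. The Ct table deposited by the authors holds the Ct of each assay, a score without normalization, with 100 miRNA values over 35. Their second table, on the log2 scale, was deposited as Ct minus the mean of the 4 U6 wells, which it matched within 0.01, and served as an alternative. Ratios between the groups, also deposited, were not used.

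Following the study's methods, values over a Ct of 35 were dropped and a miRNA was tested if 3 or more samples per group had a value. This left 227, compared with limma 3.58.1 in R 4.3.3 (no covariates) and Benjamini-Hochberg adjustment over all 227 at a threshold of 0.05. The study's methods name both U6 and global mean normalization, so both were used, with U6 as the main reference. Single values and Ct differences were tested with two-sided exact permutation over the 70 assignments of samples. The number of samples and the shared reference limit the precision. The SE of a log2 change had a median of 0.66 with U6 and 0.32 with the global mean. Scripts were tested on simulated data.

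The members, marker lists and tests were chosen with earlier results of these data known. Named miRNAs are the members, their opposite arms, the 3 miRNAs most like each member and those of the lists. The miRNAs named as partners of miR-338-3p, those with a lower Ct than miR-138 and the list members with values were picked after their values were seen.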

Additional observations from a re-analysis of the deposited data

Results flagged for a closer look

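The level of miR-338-3p relative to U6 in sample 7a was -14.88, far from the other MLC/SOD1[G93A] samples, which lay between -12.39 and -11.98. The Ct of miR-219-2-3p in wild type 1 was 31.00, against 29.75 to 29.93 in the other wild type samples. These were 2 of the 32 groups of 4 values examined, where chance alone marks about 5%. The plant miRNA miR159a, a negative control on the card, was read at a Ct of 29.85 in sample 7a, while the other 7 gave none. That sample also had the lowest U6 Ct, the widest U6 wells and the highest Ct of miR-338-3p, and the part of these in the value was not tested. Sample 8a read a Ct of 18.40 for U87 and 1.07 for miR-381, and its U6 wells spanned 1.97 cycles. The part of these in its values was not tested either.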

How the results depend on the processing

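miR-338-3p was lower in MLC/SOD1[G93A] samples under every alternative run, on both scales. It lay between -1.46 and -0.49 relative to U6 and between -0.999 and -0.513 relative to the global mean when 1 sample was left out. Without wild type 1 and sample 7a, a choice made after seeing the data, it was -0.35 relative to the global mean (exact permutation p = 0.2). It passed the exact permutation test with U6 well 1 as the reference (-1.97), where the median of all miRNAs changed by -1.12. miR-219 turned higher when the U6 mean was replaced by U6 well 4 (0.19), snoRNA135 (0.0275), Y1 (0.48), the mean of snoRNA135, snoRNA202 and Y1 (0.0025) or the neuronal miRNAs (0.11). Relative to the U6 mean, miR-219 lay between -0.843 and 0.0471 with 1 sample left out. Relative to the global mean it ranged from -0.256 to 0.0249 with 1 sample left out and was 0.0491 without wild type 1 and sample 7a. It was above 0 without sample 7a on both scales. miR-138 turned lower when the U6 mean was replaced by the median of the U6 wells (-0.0175), U6 well 1 (-0.72), U6 well 3 (-0.0775) or U87 (-2.18). Relative to the U6 mean, it lay between -0.0438 and 0.357 with 1 sample left out, negative without sample 6a. Relative to the global mean it then lay between 0.25 and 0.78, the highest without wild type 1. miR-219-2-3p turned lower when the U6 mean was replaced by the median of the U6 wells (-0.01), U6 well 1 (-0.71), U6 well 3 (-0.07) or U87 (-2.17). Relative to the U6 mean, it lay between -0.39 and 0.62 with 1 sample left out. It passed the unadjusted exact permutation test with Y1 (1.04, limma adjusted p = 0.121) and the neuronal miRNAs (0.68, limma adjusted p = 0.350). These references also raised the whole card, with a median change over all 227 miRNAs of 0.64 with Y1 and 0.25 with the neuronal miRNAs. At an unadjusted limma p under 0.05, 67 of the 227 lay higher and 0 lower with Y1, and 23 higher and 5 lower with the neuronal miRNAs. miR-338-3p minus miR-138 lay between 0.85 and 1.49 cycles with 1 sample left out (exact permutation p up to 0.114) and was 1.01 without wild type 1 and sample 7a (p = 0.1, the smallest that 3 against 3 allows).

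The median change of all miRNAs was -2.58 with U87 and 0.64 with Y1, and the miRNAs called depended on the reference. Beside the 5 lower and the 1 higher at the unadjusted threshold relative to U6, there were 13 and 8 relative to the global mean, 9 and 7 to the global median, 45 and 0 to U6 well 1 (4 after adjustment), 2 and 2 to well 2, 1 and 4 to well 4, 0 and 0 to U87, 0 and 67 to Y1, and 12 and 2 for the Ct itself. Higher ones numbered 0 with the median of the U6 wells, U6 well 3 or a Ct limit of 32, 7 with snoRNA135, 15 with the mean of the 3 controls and 23 with the neuronal miRNAs, and lower ones 28 with snoRNA202. There were 3 and 0 among miRNAs measured in all samples and 0 and 0 by the exact Mann-Whitney test. Leaving out 1 sample gave 3 to 36 lower, 0 to 2 higher and 0 to 4 after adjustment, with the 36 and the 4 both without wild type 1. The cause was not tested. No paired analysis was possible because the labels do not say which wild type and MLC/SOD1[G93A] samples share a litter.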
